A study of Mus musculus with 2 samples.

Results

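B cell lineage genes are 9 genes whose products build or steer the B cell antigen receptor, set B cell identity or mark the B cell surface: Ms4a1, Cd79a, Cd79b, Cd22, Cr2, Pax5, Blk, Fcer2a and Faim3. They were chosen by name, with earlier results of these data known, and each was found among the 22609 genes counted. Their RNA was measured in CD8+ regulatory T cells, a CD8+ subset with suppressive activity, which had been sorted by flow cytometry out of the spleens of naive mice at 3 months of age. One library came from Tgfbr2-/-Eomes-/- mice, called DKO here, and 1 from WT mice. Tgfbr2 encodes a TGF-beta receptor subunit, and Eomes encodes a T-box factor of CD8+ T cells and NK cells. Neither the number of mice pooled, nor the sort markers, nor how and in which cells the genes were deleted is stated in the labels.

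B cells recognise antigen through a membrane immunoglobulin that signals through the paired chains CD79A and CD79B. PAX5 holds cells in the B lineage, the kinase BLK acts below the receptor, and the complement receptor CD21 (encoded by Cr2) lowers the threshold for activation in a complex that holds CD81. CD22 is a sialic acid-binding lectin that does the opposite: it recruits the phosphatase SHP1 (encoded by Ptpn6) and restrains the signal. B cells are abundant in the spleen, and CD8+ T cells are not known for carrying this set as a whole.

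The DKO library held 19661212 gene counts and the WT library 22307065. Counts are given with CPM, which are counts scaled to library size by TMM, a scaling that sets most genes equal between libraries. The defining genes of the labelled cell type were abundant: Cd8a was at 978 CPM in the DKO library and 998 CPM in the WT library, Cd8b1 at 1220 CPM in DKO and 1201 CPM in WT, and Cd3e at 252 CPM in DKO and 305 CPM in WT. The deleted genes were still counted, over the gene as a whole and not over the deleted part. Eomes was 2.61-fold lower in the DKO library, at 180 CPM against 469 CPM in the WT library, and Tgfbr2 was 1.46-fold lower, at 244 CPM against 357 CPM in the WT library. With 1 library per genotype there is no replicate check and no p-value. Each interval below is an exact 95% interval of counting error and compares the 2 libraries, not the genotypes.

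The members split. Cd22 and Cr2 were lower in the DKO library, and the other 7 had ratios above 1. The Cd22 and Cr2 counts together were 515 in the DKO library and 1898 in the WT library, or 25.8 CPM in DKO and 86.5 CPM in WT, which was 3.36-fold lower (interval 3.05 to 3.71). The other 7 members together had 1374 counts in the DKO library and 1055 in the WT library, or 68.7 CPM in DKO and 48.1 CPM in WT, which was 1.43-fold higher (1.32 to 1.55). Genes that reached 1 CPM in at least 1 library were compared, and a gene was called higher or lower if it differed by 2-fold or more and its interval excluded 1. Of the 8 members that met this minimum, 2 were called higher (Ms4a1 and Faim3), 2 lower (Cd22 and Cr2) and 4 neither. Over all 11735 genes compared, 11.7% were called higher and 3.67% lower. Fcer2a missed the minimum, and Pax5 and Faim3 met it through the DKO library alone, so the count over these 8 genes is no support for a shift of the group. Their median log2 ratio, computed with 0.5 added to each count, was 0.63, against 0.00 over all genes compared. In bulk RNA such as this, fewer cells of a type and less RNA per cell cannot be told apart.

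**Figure D1:**
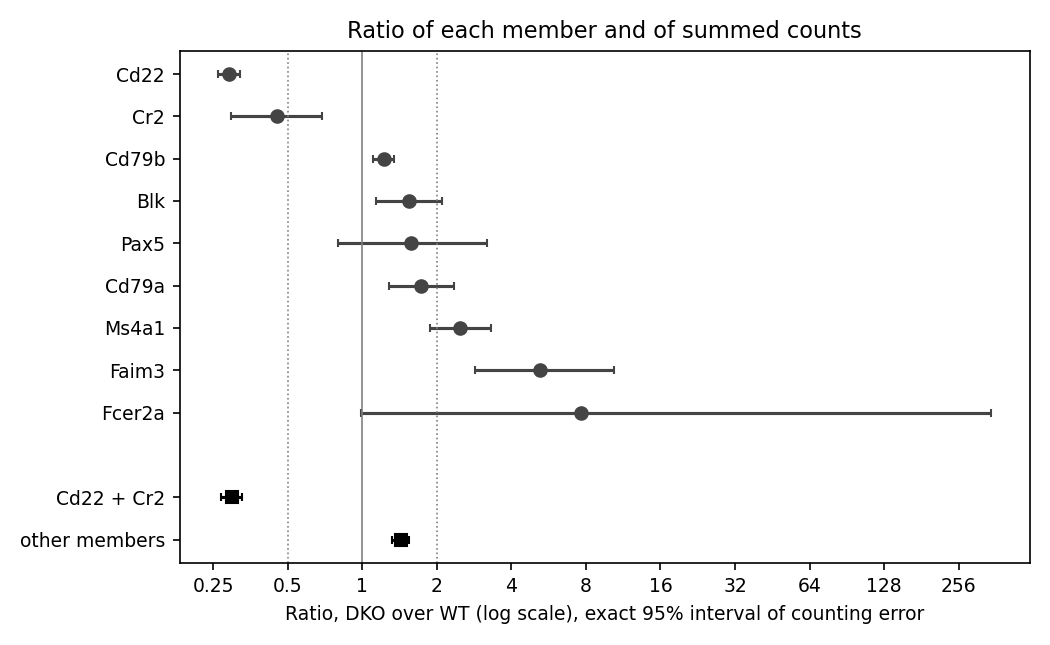
Ratio of DKO over WT (log axis) for each member and for summed counts of Cd22 with Cr2 and of the other 7 members; points are 1 library against 1, bars are exact 95% intervals of counting error, and dotted lines mark 2-fold. Cd22 and Cr2 lie left of 1, and the interval of Fcer2a, from 7 counts in DKO and 1 in WT, runs from 0.99 to 346.

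The signalling chains of the receptor were present in both libraries at unequal levels. Cd79a had 118 counts in the DKO library and 75 in the WT library, or 5.90 CPM in DKO and 3.42 CPM in WT, and was 1.73-fold higher (1.28 to 2.34). Cd79b had 892 counts in the DKO library and 802 in the WT library, or 44.6 CPM in DKO and 36.6 CPM in WT, and was 1.22-fold higher (1.11 to 1.34). Both chains were above their WT level beyond counting error, and neither reached 2-fold. The 2 ratios were not the same: that of Cd79a was 1.41 times that of Cd79b (1.03 to 1.95). For each Cd79a count there were 7.56 Cd79b counts in the DKO library and 10.7 in the WT library. Blk, the Src-family kinase of B cells, had 104 counts in the DKO library and 74 in the WT library, or 5.20 CPM in DKO and 3.37 CPM in WT, and was 1.54-fold higher (1.13 to 2.11). Immunoglobulin heavy and light chain genes were not analysed here.

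Pax5, the transcription factor that commits cells to the B lineage, was close to the lowest level compared. It had 23 counts in the DKO library and 16 in the WT library, or 1.15 CPM in DKO and 0.729 CPM in WT, a ratio of 1.58 whose interval of 0.80 to 3.19 held 1. A difference in Pax5 of this size was therefore not resolved at this depth. In the GENCODE M21 annotation (GRCm38) 4 other genes overlap Pax5, 1 antisense gene overlaps Cd22 and 1 overlaps Ms4a1. The strand setting of the counting is not given, so reads of such partners cannot be told apart from those of the members.

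Among the surface genes, Ms4a1 and Faim3 were called higher. Ms4a1, which encodes the B cell antigen CD20, had 168 counts in the DKO library and 74 in the WT library, or 8.40 CPM in DKO and 3.37 CPM in WT, and was 2.49-fold higher (1.88 to 3.32). Faim3, now named Fcmr and the gene of the Fc receptor for IgM, had 62 counts in the DKO library and 13 in the WT library, or 3.10 CPM in DKO and 0.593 CPM in WT, and was 5.23-fold higher (2.85 to 10.4). At these abundances calls of higher were common, though how often a ratio reached that of Faim3 was not counted. Of all genes at 1 to 5 CPM in the library where they were higher, 35.4% were called higher, and of those at 5 to 20 CPM, 18.8% were called higher and 3.96% lower. The median log2 ratio was 0.46 in the first range, which holds Faim3, Pax5 and Cr2, and 0.18 in the second, which holds Ms4a1, Cd79a and Blk. Fcer2a, the gene of the low-affinity IgE receptor CD23 of follicular B cells, had 7 counts in the DKO library and 1 in the WT library, or 0.350 CPM in DKO and 0.0456 CPM in WT. Its ratio of 7.68 had an interval of 0.99 to 346.

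Cd22 was the member with the most WT counts and the one that stood farthest below its WT level. It had 481 counts in the DKO library and 1816 in the WT library, or 24.1 CPM in DKO and 82.8 CPM in WT, and stood 3.44-fold lower (3.11 to 3.81). Of all genes at 20 to 100 CPM, the range of Cd22, 0.69% were called lower and 4.71% higher, and the median log2 ratio there was -0.02. Cr2 had 34 counts in the DKO library and 82 in the WT library, or 1.70 CPM in DKO and 3.74 CPM in WT, and stood 2.20-fold lower (1.46 to 3.38). Of genes at 1 to 5 CPM, the range of Cr2, 15.8% were called lower. When libraries were scaled by T cell receptor genes in place of TMM, Cr2 missed 2-fold at a log2 ratio of -0.96, and 2 members were called higher and 1 lower.

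**Figure D2:**
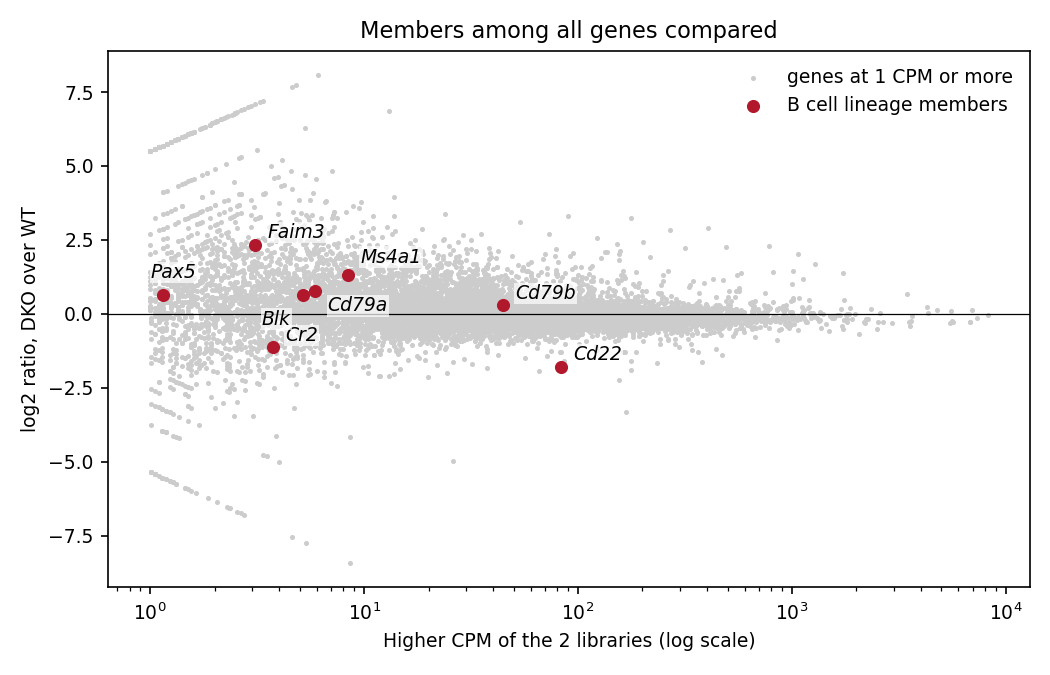
log2 ratio of DKO over WT against the higher CPM of the 2 libraries (log axis) for the 11735 genes compared (grey) and the 8 members among them (red). Cd22, at 82.8 CPM in the WT library and a log2 ratio of -1.78, lies below the band of genes of its abundance, while the other members lie among the wider scatter of low-count genes or, for Cd79b, within the band.

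The gap between Cd22 with Cr2 and the other members was measured within each library, so that no scaling between libraries enters. The DKO over WT ratio of the summed Cd22 and Cr2 counts was 4.80-fold lower than that of the other 7 members (exact conditional interval 4.22 to 5.46). For Cd22 alone this gap was 4.92-fold (4.32 to 5.60) and for Cr2 alone 3.14-fold (2.06 to 4.87). Cd79b supplied most counts of the other members, and without it the gap was 7.02-fold (5.84 to 8.45). All 36 pairs of members were then compared in the same way, with intervals that are not adjusted over the pairs. Each of the 14 pairs that set Cd22 or Cr2 against another member had an interval that left out 1, against 8 of the 21 pairs among the other members. Cd22 and Cr2 are also the only members with ratios below 1. The gap and this tally therefore describe that division and are no independent support for it. The ratio of Cd22 was itself 1.57-fold lower than that of Cr2, with an interval of 1.00 to 2.39 that barely left out 1. Cd22 made up 25.5% of the members' counts in the DKO library and 61.5% in the WT library. For each Cd79a count there were 4.08 Cd22 counts in the DKO library and 24.2 in the WT library, and 0.288 Cr2 counts in the DKO library against 1.09 in the WT library. Pax5 and Blk stood at 0.195 and 0.881 per Cd79a count in the DKO library against 0.213 and 0.987 in the WT library, and the intervals of both pairs held 1.

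Levels of different genes were compared per kb of transcript, using the median length of each gene's protein-coding transcripts in GENCODE M21 (GRCm38). In the DKO library Cd79b was highest, at 34.0 CPM per kb, followed by Cd22 at 7.01 and Cd79a at 4.05. In the WT library Cd79b was at 27.8 CPM per kb and Cd22 close behind at 24.1, with Cd79a next at 2.35. These first 3 places were separated from each other, and Cd79a from the gene below it, beyond counting error in both libraries. Below them the order was loose. In the DKO library no neighbours were separated within the run Ms4a1 (2.73), Blk (2.24) and Faim3 (1.94 CPM per kb), nor within the run Pax5 (1.11), Cr2 (0.645) and Fcer2a (0.376 CPM per kb). In the WT library no neighbours were separated within the run Blk (1.45), Cr2 (1.42), Ms4a1 (1.10), Pax5 (0.703) and Faim3 (0.370 CPM per kb), and Fcer2a was last at 0.0490 CPM per kb. For scale, Cd3e was at 173 CPM per kb in the DKO library and 209 CPM per kb in the WT library. The length chosen matters most for Pax5, Fcer2a and Cr2. With their longest transcripts Pax5 was at 0.144, Fcer2a at 0.156 and Cr2 at 0.274 CPM per kb in the DKO library, against 0.0911, 0.0203 and 0.602 CPM per kb in the WT library. With these lengths Cr2 lay above Pax5 in the DKO library and below Ms4a1 in the WT library, the reverse of the orders above.

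**Figure D3:**
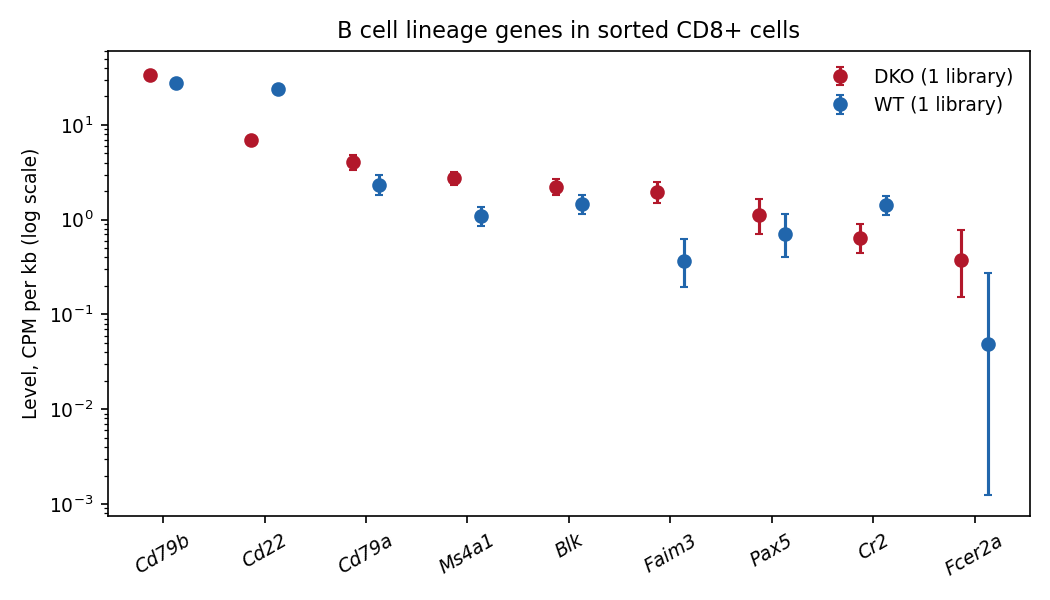
Level of each member in CPM per kb of median transcript length (log axis) in the DKO library (red, left) and the WT library (blue, right); bars are exact 95% Poisson intervals of the count. Cd22 and Cr2 are the members whose DKO point lies below the WT point.

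Promoter sequence, 250 bases before to 50 after a RefSeq start, was listed for 6 of the 9 members, and is shown for Cd22 and Cr2, the pair that was lower, and for Cd79a, a receptor chain that was higher. All are 5′ to 3′ on the gene's strand in GRCm38.p6, at chr7:30878979-30879278 (minus strand) for Cd22, chr1:195176670-195176969 (minus strand) for Cr2 and chr7:24897247-24897546 (plus strand) for Cd79a. Capitals mark matches, on either strand, to 5 words searched: the octamer ATTTGCAT, the EBF palindrome (TCCC and GGGA with 2 bases between), the PU.1 core GAGGAA, and the E-boxes CAGGTG and CAGCTG.
Cd22: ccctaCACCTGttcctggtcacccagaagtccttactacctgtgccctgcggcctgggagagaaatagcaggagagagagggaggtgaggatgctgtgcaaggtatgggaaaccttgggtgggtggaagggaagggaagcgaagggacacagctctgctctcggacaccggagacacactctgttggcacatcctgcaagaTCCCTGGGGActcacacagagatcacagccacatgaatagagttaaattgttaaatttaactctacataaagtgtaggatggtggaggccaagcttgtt
Cr2: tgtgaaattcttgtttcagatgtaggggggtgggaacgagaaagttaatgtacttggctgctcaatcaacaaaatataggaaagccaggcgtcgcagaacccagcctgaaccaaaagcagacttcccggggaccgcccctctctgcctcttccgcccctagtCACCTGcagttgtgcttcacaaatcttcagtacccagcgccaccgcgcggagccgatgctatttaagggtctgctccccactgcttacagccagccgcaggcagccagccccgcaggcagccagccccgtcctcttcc
Cd79a: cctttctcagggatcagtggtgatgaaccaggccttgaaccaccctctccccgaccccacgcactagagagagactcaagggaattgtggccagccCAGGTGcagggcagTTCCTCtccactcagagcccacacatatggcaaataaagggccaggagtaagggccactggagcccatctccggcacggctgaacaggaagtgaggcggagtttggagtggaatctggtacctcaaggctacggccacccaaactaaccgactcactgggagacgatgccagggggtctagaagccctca
No matches overlapped each other. The EBF palindrome was found in Cd22 alone of the 6 members, 49 bases before the start, and in 0.904% of all 32851 promoters. CAGGTG was found in 5 of the 6 members (all but Pax5), Cd22, Cr2 and Cd79a among them, and in 20.2% of all promoters. Of the 3 Fcer2a promoters 1 held it, and members are counted here by gene whereas the percentages are by promoter. GAGGAA was found in Cd79a and Faim3, and in 28.3% of all promoters, while CAGCTG was found in Faim3 and in 1 of the 3 Fcer2a promoters, and in 16.3% of all. The octamer was in none of the 8 member promoters and in 1.74% of all. A match is a description of these letters, not a bound site.

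Genes that work with the members were described from lists, whose counts stand beside the 11.7% higher and 3.67% lower of all genes. Of 18 compared genes of B cell receptor signalling and co-receptors, 7 were called higher, 1 lower and 10 neither, with a median log2 ratio of 0.70. Bank1, a B cell scaffold protein, was 3.29-fold higher (2.43 to 4.52), at 8.55 CPM in the DKO library and 2.60 CPM in the WT library. Btk, a kinase of receptor signalling, was at 19.2 CPM in DKO and 7.89 CPM in WT and 2.43-fold higher (2.02 to 2.92), and Dok3, an adaptor that dampens it, was at 30.1 CPM in DKO and 12.9 CPM in WT and 2.34-fold higher (2.03 to 2.71). The lower gene was Cd72, a lectin that, like CD22, recruits SHP1 to restrain B cells. Cd72 had 530 counts in the DKO library and 1568 in the WT library, or 26.5 CPM in DKO and 71.5 CPM in WT, and stood 2.70-fold lower (2.44 to 2.98).

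Partners of Cr2 and Cd22 were looked at by name after their values were seen. Cd81, whose product is in a complex with CD21, lay on the other side from Cr2. It had 784 counts in the DKO library and 507 in the WT library and was 1.70-fold higher (1.52 to 1.90). The ratio of Cr2 was 3.73-fold lower than that of Cd81 (2.43 to 5.83). Lyn, the kinase that phosphorylates CD22, was at 93.3 CPM in the DKO library and 59.6 CPM in the WT library and was 1.57-fold higher (1.46 to 1.68). Ptpn6 was at 599 CPM in the DKO library and 873 CPM in the WT library and was 1.46-fold lower (1.42 to 1.49). Inhibitory receptors on the same list as Cd72 did not all go its way. Fcgr2b, an inhibitory Fc receptor, was 2.13-fold higher (1.85 to 2.45), whereas Cd72 was lower. Siglecg, a lectin related to CD22, was 5.74-fold higher (3.39 to 10.3) from 89 counts in the DKO library and 17 in the WT library. Siglecg met the minimum through the DKO library alone, at 4.45 CPM against 0.775 CPM in WT. Of all genes at 1 to 5 CPM, its range, 35.4% were called higher.

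B lineage transcription factors had a median log2 ratio of 0.55, with 3 of 14 called higher, 0 lower and 11 neither. Ebf1 missed the minimum of 1 CPM and is not among the 14. Tcf4, which is also a factor of plasmacytoid dendritic cells, was 3.74-fold higher (2.88 to 4.91), Mef2c 2.63-fold (2.10 to 3.31) and Bcl11a 2.01-fold (1.58 to 2.57). Irf8, a factor of B cells and myeloid cells, was at 191 CPM in the DKO library and 101 CPM in the WT library, a ratio of 1.89 (1.79 to 1.99) that missed 2-fold. Other B cell surface genes had a median of 0.54, with 5 of 19 called higher, 1 lower and 13 neither. Cd40, the receptor through which helper T cells activate B cells, was at 9.40 CPM in the DKO library and 2.78 CPM in the WT library and 3.38-fold higher (2.52 to 4.59). Cd180 was 2.76-fold higher (2.33 to 3.28), while Cd200, with 119 counts in the DKO library against 5 in the WT library, was 26.1-fold higher (10.9 to 81.9). Cd200 met the minimum through the DKO library alone, at 5.95 CPM against 0.228 CPM in WT. The lower gene was Cxcr5, the follicle-homing receptor of B cells that some T cells also carry, at 33.4 CPM in the DKO library and 155 CPM in the WT library, which was 4.66-fold lower (4.29 to 5.07).

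Cxcr5 and Cd72 were the 2 genes, of the 66 in these B cell lists with at least 5 CPM in either library, whose log2 ratio was at or below that of Cr2. The ratio of Cd72 was 3.85-fold lower than that of the 7 other members (3.39 to 4.38) and that of Cxcr5 6.66-fold lower (5.92 to 7.49). The 3 were not equal: the ratio of Cd22 was 1.28-fold lower than that of Cd72 (1.11 to 1.47), and that of Cxcr5 1.35-fold lower than that of Cd22 (1.19 to 1.55). These comparisons were chosen after the values were seen. The 5 genes nearest to the members' median of 0.63 were H2-Oa, Lyn, Irf4, Vav3 and Cd9, each within 0.03 on the log2 scale over the 2 libraries.

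MHC class II genes, which B cells, dendritic cells and macrophages use to present antigen to CD4+ T cells, had a median log2 ratio of 1.37. Of 11 genes, 8 were called higher, 0 lower and 3 neither, and all 11 ratios were above 1. H2-Aa was at 1278 CPM in the DKO library and 398 CPM in the WT library and 3.21-fold higher (3.14 to 3.29), H2-Ab1 was 2.73-fold higher (2.66 to 2.81), H2-DMb1 2.84-fold (2.51 to 3.21) and Ciita, the master regulator of the set, 3.01-fold (2.76 to 3.28). The 8 genes compared of the immunoglobulin and plasma cell list hold no heavy or light chain gene, and 2 of them were called higher, 1 lower and 5 neither, at a median of 0.39. Igj, the joining chain of secreted IgM and IgA, was at 389 CPM in the DKO library and 189 CPM in the WT library and 2.06-fold higher (1.98 to 2.14). Prdm1, also a factor of effector T cells, was 2.43-fold higher (2.07 to 2.86). Tnfrsf17, a survival receptor of plasma cells, had 10 counts in DKO and 29 in WT and was 2.64-fold lower (1.25 to 6.08). Tnfrsf17 met the minimum through the WT library alone, at 1.32 CPM, and 15.8% of all genes at 1 to 5 CPM were called lower. Pou2af1, a B cell coactivator, had a ratio of 1.44 (1.24 to 1.68) and Xbp1, a factor of secretory cells, one of 1.26 (1.18 to 1.34), and neither was called.

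Of 7 compared early B cell and germinal centre genes, 2 were called higher, 0 lower and 5 neither, at a median log2 ratio of 0.38. The called genes both lay at 1 to 5 CPM, where 35.4% of all genes were called higher. Dntt, the template-independent polymerase of developing lymphocytes, had 99 counts in the DKO library and 48 in the WT library, and Mybl1, a factor of germinal centre B cells, had 29 counts in DKO and 8 in WT and met the minimum through the DKO library alone. At a minimum of 5 CPM 0 of the list were called higher and the median was 0.21. With no minimum 2 were called higher and the median was again 0.21. The 4 genes at 5 CPM or more with the largest differences were Fas, a death receptor, at a ratio of 1.73 (1.51 to 1.98), Cd93 at 1.30 (1.13 to 1.49), S1pr2, a receptor that keeps B cells in germinal centres, at 1.15 (1.01 to 1.31), and Bcl6, a repressor needed for germinal centres, at 1.13 (1.01 to 1.26).

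Marker lists of other cell types all had median log2 ratios above 0, but of unequal size. They ran from 0.48 (follicular dendritic cell and stroma) to 2.03 (neutrophil), against 0.63 for the members. The part of such cells in these results was not tested. By summed CPM all members were at 94.5 in DKO and 134.6 in WT, a ratio of 0.70. That ratio was 0.88 for B cell receptor signalling, 0.99 for transcription factors and 0.96 for early B cell genes. It was 1.09 for other surface genes, 1.38 for plasma cell genes and 2.68 for MHC class II. Dendritic cell markers summed to 356 CPM in the DKO library and 211 CPM in the WT library, with 7 of 12 called higher, and Xcr1, Tcf4, Ccr9 and Clec9a, the farthest from 1 at 5 CPM or more, were each 2.50-fold higher or more. Monocyte and macrophage markers summed to 2193 CPM in DKO and 1170 CPM in WT, with 4 of 14 called higher (Lyz1, Itgam, Cd68 and Lyz2, by 2.02-fold to 2.87-fold). Neutrophil markers summed to 2963 CPM in DKO and 700.1 CPM in WT, with 7 of 12 called higher, led by Lcn2, Ngp, Ltf and Camp at 5.42-fold to 9.51-fold. NK cell markers summed to 3216 CPM in the DKO library and 2504 CPM in the WT library, with 7 of 14 called higher and 1 lower, though cytotoxic T cells make several of them. Gzma, Klrb1f and Klrb1b were 2.69-fold to 4.91-fold higher. CD4 and FOXP3 T cell markers summed to 449.8 CPM in DKO and 241 CPM in WT, with 7 of 11 called higher, led by Tnfrsf4 at 7.13-fold, Cd40lg at 6.10-fold and Cd4 at 4.54-fold, with Nrp1 next. Of the erythroid markers, Hba-a1, Hba-a2, Hbb-b1 and Hbb-b2 were listed at 0 in both libraries, and the 3 with enough counts were called higher, Car2 by 3.21-fold and Slc4a1 by 5.40-fold. Of the follicular dendritic cell and stroma markers, Pdpn, Ccl19 and Ccl21a were listed at 0 in both libraries, and 1 of 4 compared was called higher, while Fn1, Mfge8 and Clu had ratios of 1.61, 1.21 and 0.83. In all of these marker lists but that of NK cells, where Eomes was the lower gene, 0 markers were called lower. T cell receptor complex and signalling genes had a median log2 ratio of -0.20, with 0 of 24 called in either direction. Nfatc2, Vav1, Zap70 and Fyn stood lowest, at ratios of 0.62 to 0.74. The list's median was -0.04 when these genes set the scale in place of TMM.

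**Figure D4:**
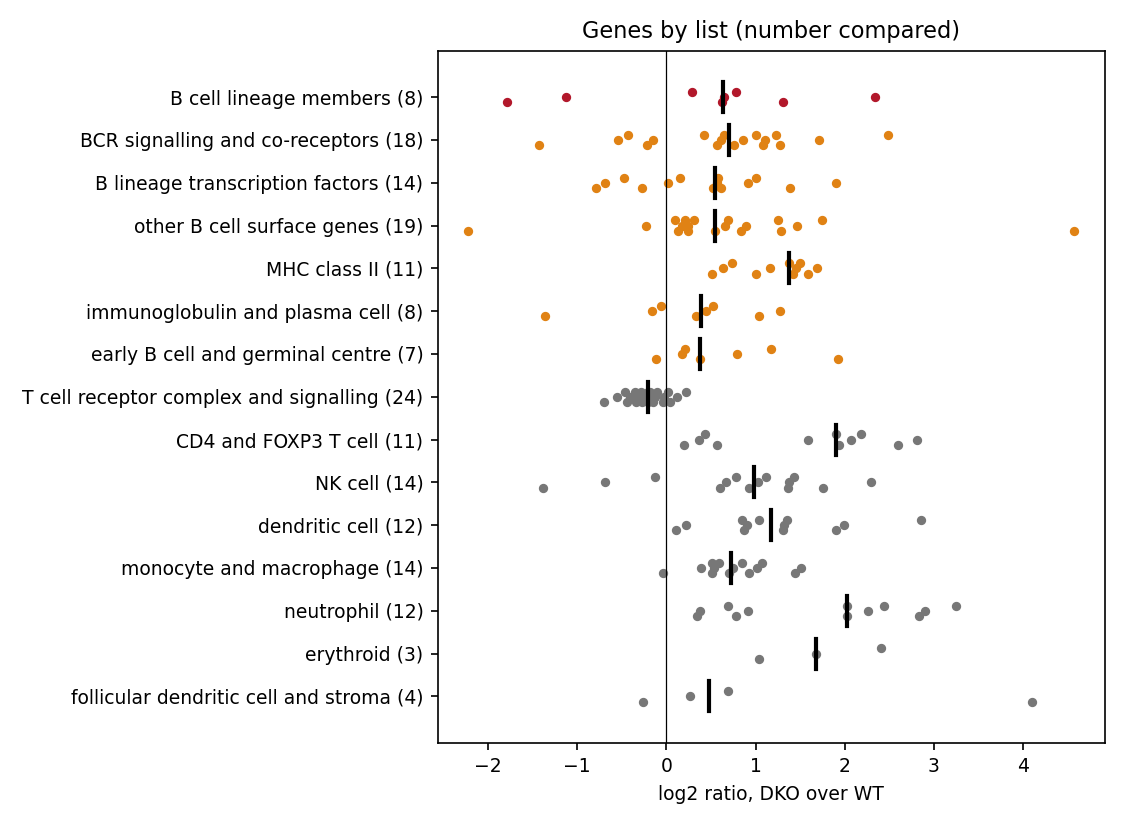
log2 ratio of DKO over WT for the compared genes of each list, with the number compared in brackets; red points are the members, orange points the other B cell lists, grey points markers of other cells, and black bars the medians. Most genes of the members and B cell lists lie right of 0, at medians of 0.38 to 0.70 and, for MHC class II, 1.37. Some of them, such as the MHC class II genes and Irf8, are also genes of other cells. Cd22, Cr2, Cd72, Cxcr5 and Tnfrsf17 are the genes of these lists left of -1.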

How the data were processed

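The values are raw read counts by gene symbol, 1 file a library, as the authors deposited them. They come from total RNA made into TruSeq libraries and read as 50 bp single ends, per the labels' protocols. In the submitters' processing notes the tools are HTSeq, TopHat2 2.0.8b and bcl2fastq, and the build is mm9. The gene annotation, filters and strand setting are not given in these sources. The 5 rows per file that name no gene were left out of library sizes. Non-unique alignments held 64.8% of all rows' total in the DKO library and 66.4% in the WT library, and gene counts 30.5% and 28.5%.

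Groups came from the genotype label. Counts were scaled by TMM (edgeR 4.0.16 in R 4.3.3, factors 1.02 for DKO and 0.983 for WT). 1 count is 0.0500 CPM in DKO and 0.0456 CPM in WT. Ratios have Clopper-Pearson 95% intervals, and ratios of ratios exact conditional intervals (scipy 1.17.1). There were no molecular identifiers, so reads are not independent molecules and the intervals cover only counting error. No test of genotype could be fitted with 1 library each. The functions were tested on simulated data. Members and lists were chosen with earlier results of these data known. Named were all members, the 2 deleted genes, Cd3e, Cd8a and Cd8b1, in each list up to 4 genes farthest from a log2 ratio of 0 at 5 CPM or more, and the 5 nearest the members' median. Genes outside this rule that complete a small count, or are named as partners, were chosen after their values were seen. RefSeq GRCm38.p6 and GENCODE M21 gave promoters and lengths, so no coordinates are of the mm9 files. 1 result is not reported here. Alternatives were scaling by total counts, by DESeq2 1.42.0 size factors or by T cell receptor genes, limits of 1.5-fold and 4-fold, no filter or 5 CPM, a prior count of 5, and other choices of members and of transcript length.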

Additional observations from a re-analysis of the deposited data

How the results depend on the processing

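No direction turned round for any member, for the members' median or for the gap between Cd22 with Cr2 and the others under the alternatives run. Scaling by total counts or DESeq2 size factors left the counts at 2 members higher and 2 lower, and scaling by T cell receptor genes, which shifts every log2 ratio up by 0.16, gave 1 lower. With a 1.5-fold limit 4 members were higher, with a 4-fold limit 1 higher and 0 lower, and with a minimum of 5 CPM 1 higher and 1 lower, since fewer genes are compared. The members' median log2 ratio stayed between 0.57 and 0.80. The log2 gap of Cd22 with Cr2 to the others was -2.26, -2.81 without Cd79b, -2.21 without Faim3 and -2.24 from medians. Over all genes, the counts of 1370 higher and 431 lower became 2074 and 992 at 1.5-fold, 525 and 143 at 4-fold, and 740 and 149 at a minimum of 5 CPM, and 701 were lower with no filter. Of 210 recomputed counts for lists and all genes, 37 moved by over 1.5 times. Depth limits Fcer2a, Pax5 and Faim3, with at most 62 counts in a library. No paired analysis was possible because each genotype has 1 library, and for the same reason no library could be left out.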

Other observations

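Of 4 further B cell genes, chosen after their values were seen, Ebf1 and Vpreb3 were under 1 CPM in both libraries. Blnk and Tnfrsf13c were well counted and had intervals that held 1. These genes do not stand for all that were looked up. Fcrl1, with 264 counts in DKO and 134 in WT, was called higher, 2.16-fold (1.75 to 2.68). Cd74 was called higher too, 2.59-fold (2.54 to 2.64). Spib had 210 counts in DKO and 154 in WT, with an interval of 1.21 to 1.85. Inpp5d was slightly lower, at a ratio of 0.904 (0.870 to 0.938). Ebf1, which acts with PAX5 to found the B lineage, was listed at 0 counts in the DKO library and had 6 counts in the WT library. Its ratio of 0 had an interval of 0 to 0.93 that left out 1, but Ebf1 missed the minimum and was not among the genes compared. Vpreb3, a partner of the immature receptor, had 12 counts in the DKO library and 17 in the WT library, a ratio of 0.77 whose interval of 0.34 to 1.72 held 1. Blnk, the adaptor that links SYK to its targets, had 55 counts in the DKO library and 70 in the WT library, a ratio of 0.86 (0.59 to 1.24). Tnfrsf13c, which encodes the BAFF receptor that mature B cells need to survive, had 127 counts in the DKO library and 120 in the WT library, a ratio of 1.16 whose interval held 1.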
